A study of Mus musculus with 90 samples.

Results

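The 47 genes described here build the machinery that copies DNA and the enzymes that supply its building blocks. They were chosen by name, and all 47 were found among the 35869 gene rows of the expression table. By step, 11 belong to origin licensing, 7 to origin firing, 8 to the polymerases and primase, 9 to the clamp, its loader and the single-strand binding protein RPA, 3 to the maturation of Okazaki fragments, 4 to chromatin assembly behind the fork and 5 to nucleotide supply. The study looked at how blood stem cells differentiate with and without RUNX1, a transcription factor of blood formation. All mice carried Runx1 with both copies flanked by loxP sites, and all received 4 injections of poly(I:C), which induces interferon. Knockout (KO) mice had the genotype MxCre1+/-,RUNX1f/f and wild-type (WT) controls MxCre1-/-,RUNX1f/f. The Mx1 promoter that drives this Cre responds to interferon and is active in blood and in other tissues, so deletion can also occur outside blood stem cells. CD41pos HSCs (stem cells bearing the platelet integrin subunit CD41) were sorted from bone marrow 4 weeks after the injections and cultured for 2 days. Single cells that looked like megakaryocytes (MK), the large polyploid cells that shed platelets, and cells that did not (NMK) were picked, and their RNA was amplified by a SMART-Seq kit, which copies whole transcripts. The labels give no age, animal or culture.

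Origins are licensed in G1, when the origin recognition complex, Cdc6 and Cdt1 load the MCM2-7 helicase onto DNA and geminin later blocks a further round. Cyclin E with its kinase, Cdc45 and the GINS complex then switch the helicase on, and the polymerases, the sliding clamp PCNA and ribonucleotide reductase carry the fork through S phase. Megakaryocytes repeat S phase without dividing, a cycle called endomitosis in which DNA content rises while mitosis is cut short.

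The table held 33 libraries, each from 1 cell: WT gave 9 NMK and 6 MK cells, KO gave 13 NMK and 5 MK cells. Values are TPM, transcript abundances scaled for length and to 1 common total in every library, so genes can be compared per length but the depth is unknown. No label names the animal, so each group counts as 1 sample and no test was run. Differences below are between group means of log2(TPM + 1), given beside the pooled SD between cells, and a gene is counted as higher or lower when the difference is 1 or more. On this scale low genes differ less than their TPM ratio would show. The share of all genes with a group mean of at least 1 TPM that passed the same limit is given where a comparison is first counted, and for the other gene lists. For genes whose groups did not overlap, no such share was calculated, so non-overlap is described without a background.

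Several libraries stand apart. KO NMK B1-1b and B1-2a had housekeeping scores (mean log2(TPM + 1) over 14 genes) of 4.96 and 2.54, against 9.59 to 10.7 in the other 31. In B1-1b 91.6% of TPM was mitochondrial, and B1-2a had 3011 genes above 0. Results for KO NMK cells are therefore given both with and without these 2, for single genes in part after the account of the steps. WT NMK 2 had 14 of the 47 genes at 1 TPM or more while its housekeeping score of 9.75 lay among the others. Values of single genes keep WT NMK 2 unless stated. KO MK B1-4 and 2 had megakaryocyte marker scores of 1.82 and 2.37, in the range of NMK cells (0.77 to 3.06), although they are labelled MK. Pf4, a platelet chemokine, stood at 65.8 and 213.7 TPM in them, while the remaining 3 KO MK cells had 13752 to 26885 TPM. Among WT MK cells the 5 libraries with no prefix in their titles correlated with each other at r = 0.972 to 0.981, above the highest value of 0.956 among all other pairs, so they are also averaged into 1. Nothing says that libraries of a group came from separate mice, and the spread between them may be partly technical. Runx1 itself ranged from 0 to 15.7 TPM in WT NMK, 7.6 to 22.2 in WT MK and 0 to 41.5 in KO NMK cells, and was 31.8, 47.5, 11.9, 8.9 and 12.6 in the KO MK cells. The labels do not name the exons removed, so a value over the whole gene does not check the deletion.

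**Figure D1:**
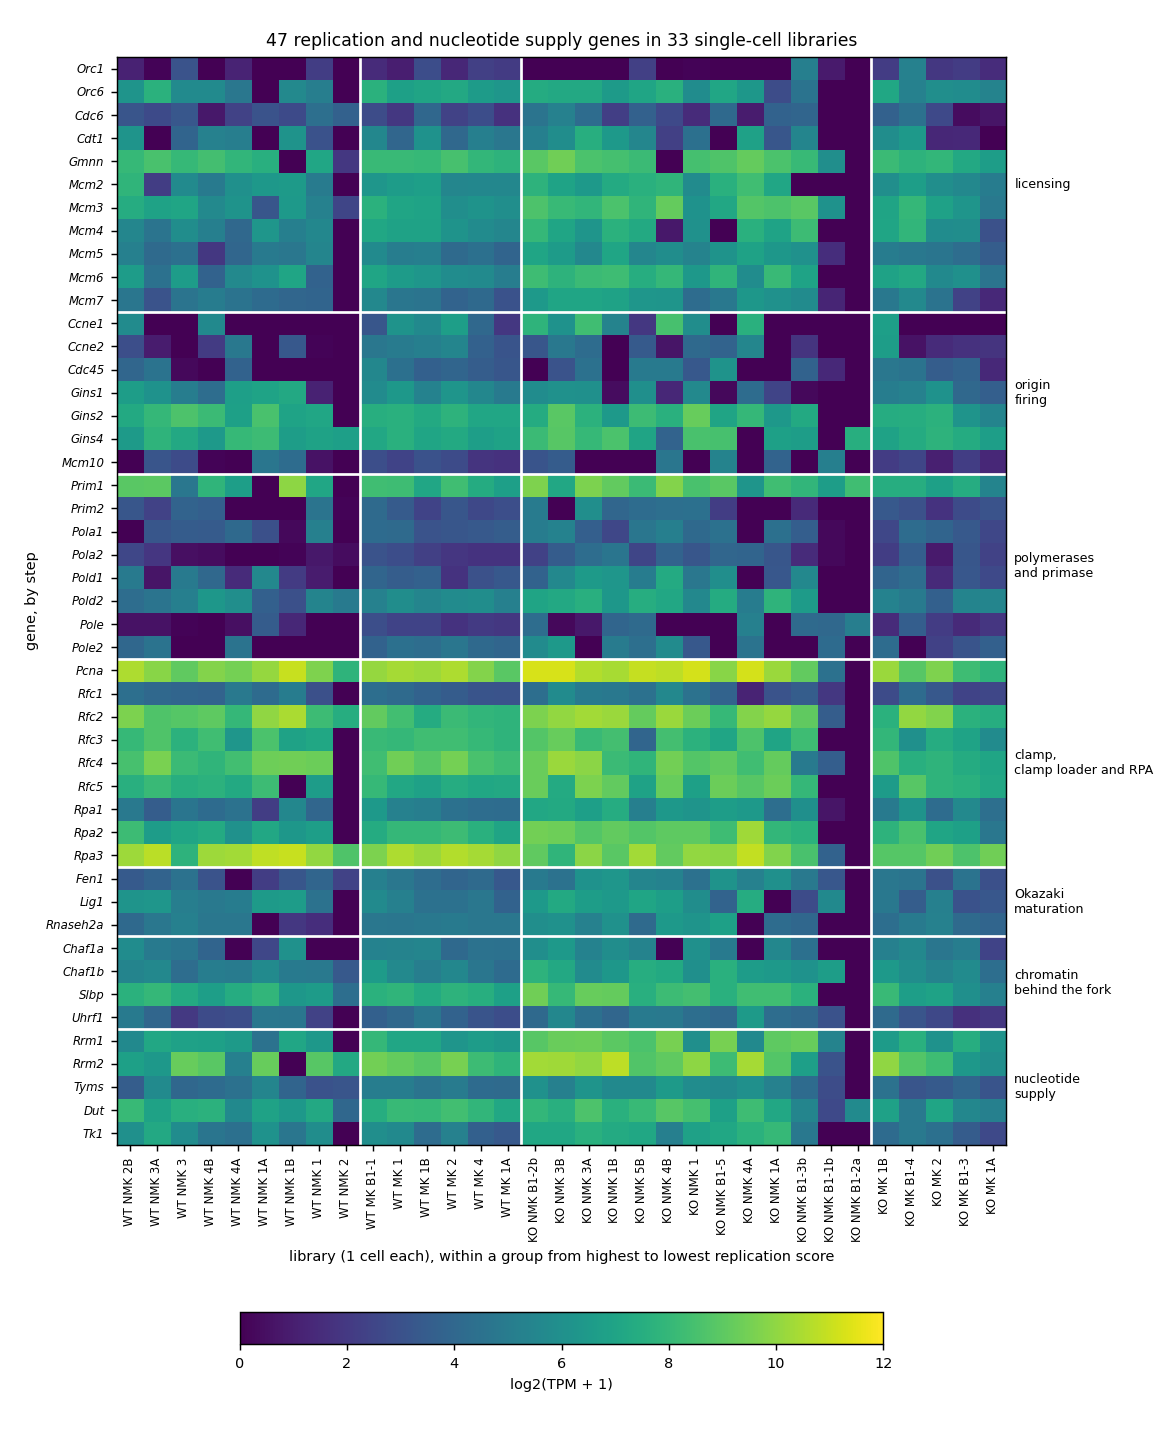
Heat map of log2(TPM + 1) for the 47 genes (rows, by step) in 33 libraries (columns, by group, from the highest to the lowest replication score). KO NMK B1-1b and B1-2a and WT NMK 2 are dark in most rows, Pcna and Rpa3 are bright in nearly all columns, and Orc1, Ccne1, Mcm10 and Pole are dark in many.

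Levels of the genes covered a wide range. Over the 31 libraries without KO NMK B1-1b and B1-2a, median levels ran from 1.2 TPM for Orc1, the largest subunit of the origin recognition complex, to 1097 TPM for Pcna, the sliding clamp. Medians of 100 TPM or more were held by 16 genes and medians under 10 TPM by 8. Pcna, Rpa3 (986 TPM) and Rfc2 (539.6 TPM) led, all from the clamp and RPA step. The 8 at the bottom were Ccne2, Prim2, Cdc6, Pola2, Mcm10, Ccne1, Pole and Orc1. A level of 1 TPM or more was reached by 9 genes in every one of the 31 libraries, while Ccne1, Orc1 and Pole2 were listed at 0 in 14, 12 and 11.

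Subunits of one complex sat at unequal levels although they act together. Of the 5 subunits of the clamp loader RFC, Rfc1, the large one, had a median of 14.2 TPM and was the lowest in 28 of 31 cells, while Rfc2 to Rfc5 had medians of 187.1 to 539.6 TPM. Of the RPA trimer, which coats single-stranded DNA, Rpa1 had a median of 34.1, Rpa2 of 218 and Rpa3 of 986 TPM, and Rpa1 was lowest in 30 of 31 cells. Prim1, the catalytic primase subunit, reached 231.5 TPM and was highest in its complex in 29 of 31 cells, against 10.6 for Pola1, 6.8 for Prim2 and 4 for Pola2. The catalytic subunits of the replicative polymerases were low, with Pold1 at 12.8 against 43.3 TPM for its partner Pold2, and Pole at 1.8 against 12.7 for Pole2. Within the MCM2-7 ring Mcm3 was the highest in 21 of 31 cells (median 127.1 TPM) and Mcm7 the lowest in 16 (25.4 TPM).

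Many of the low subunits have long transcripts. Across the 47 genes, which are not independent replicates, the mean log2(TPM + 1) over the 31 libraries and the length of the longest coding transcript had a Pearson r of -0.44 and a Spearman rho of -0.40. The transcripts ran from 670 bases for Rpa3 to 7163 for Pole. Rfc2 is an exception, since its longest coding transcript has 4995 bases, more than the 4751 of Rfc1. TPM is already divided by length.

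**Figure D2:**
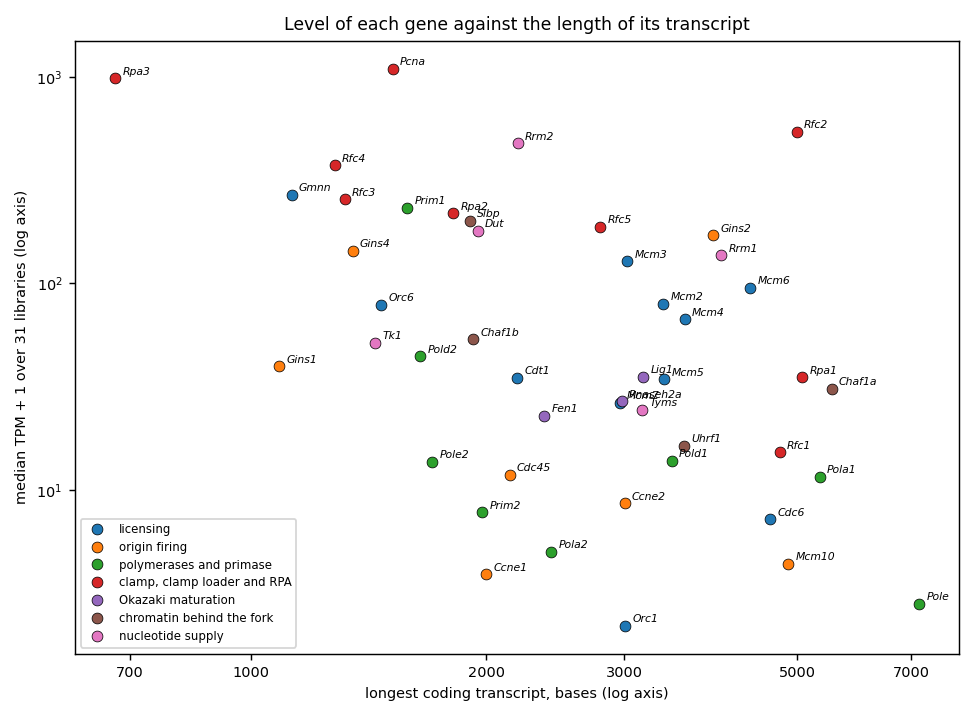
Median TPM + 1 over 31 libraries (log axis) against the length of the longest coding transcript (bases, log axis) for the 47 genes, coloured by step. Rpa3, with 670 bases, stands near the top and Pole, with 7163 bases, near the bottom, while Rfc2 lies above the other long transcripts.

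The replication score, the mean log2(TPM + 1) of the 47 genes in a cell, had a lowest, median and highest value of 1.47, 4.72 and 5.61 in WT NMK cells, 4.96, 5.70 and 6.04 in WT MK cells and 0.57, 5.90 and 6.68 in KO NMK cells. Without the 2 low KO NMK libraries that group ran from 5.18 to 6.68. The KO MK cells stood at 5.73 (1B), 4.71 (B1-3), 5.56 (B1-4), 4.95 (2) and 3.99 (1A). The highest scores were thus in KO NMK cells, all groups overlapped, and the lowest score outside WT NMK 2 and the 2 low KO NMK libraries was that of KO MK 1A. All 47 genes reached 1 TPM in each of the 6 WT MK cells, in which 14089 to 15252 genes were above 0, more than in any NMK cell of this table (highest 11715).

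**Figure D3:**
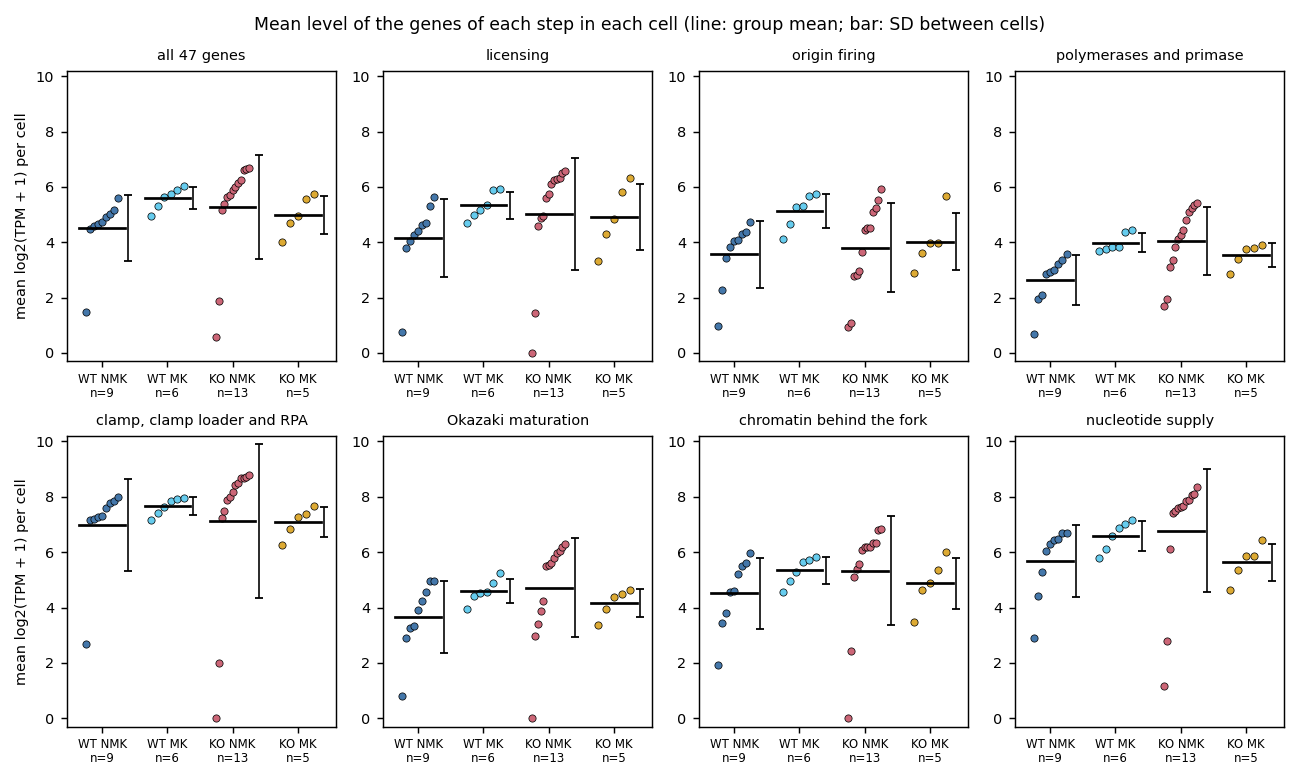
Mean log2(TPM + 1) per cell of all 47 genes and of each step, in the 4 groups (points: cells; line: group mean; bar: SD between cells, drawn beside the points). The lowest points of WT NMK and KO NMK are WT NMK 2 and KO NMK B1-1b and B1-2a, and the nucleotide supply panel shows most KO NMK cells above all other groups.

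In WT cells, MK cells were higher than NMK cells in the score by 1.09 (pooled SD 0.97; means 5.61 and 4.51), and 4 of the 6 MK cells lay above every NMK cell. The difference was 0.71 (SD 0.38) without WT NMK 2 and 1.32 (SD 1.13) with the 5 similar MK libraries averaged. By gene, 25 of 47 were 1 or more higher and 0 lower, with 37.4% of all genes higher and 5.22% lower. The count was 14 (of all genes 37.4%) without WT NMK 2 and 28 (44.5%) after averaging. It was 8 with a pseudocount of 10 and 8 as a ratio of mean TPM, for which the share of all genes was not calculated. The median of the 47 differences was 1.09, against 0.70 over all genes, and without WT NMK 2 the share of the 47 that was higher lay below that of all genes. In the authors' full table of 46 libraries, which adds 5 WT MK and 1 WT NMK library, the difference turned to -0.53, and the median of the housekeeping list there was -1.79. The added libraries had housekeeping scores of 3.6 to 5.88.

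Between the NMK cells of both genotypes, KO was higher than WT in the score by 0.76 (SD 1.64; means 5.27 and 4.51). Without KO NMK B1-1b and B1-2a the difference was 1.49 (SD 0.88), and 9 of those 11 KO cells lay above every WT NMK cell. It was 1.11 (SD 0.46) when WT NMK 2 was left out as well, and 0.38 with only WT NMK 2 left out. With all libraries, 20 of 47 genes were higher and 2 lower, where 12.8% and 13.3% of all genes were. Without the 2 low KO libraries the counts were 32 and 1, at 24.1% and 7.62% of all genes, and the median of the 47 differences was 1.51 against 0.36 for all genes. Leaving out WT NMK 2 gave 14 higher (12.6% of all genes) with the low KO libraries kept and 30 (23.9%) without them. The housekeeping score was also higher in these 11 KO NMK cells, at 10.46 against 9.85 (difference 0.61, SD 0.16), and its part in the result was not tested. Title prefixes were not balanced between these groups. The prefix B1 was carried by 0 WT NMK and 5 KO NMK libraries, both low ones among them. Within the libraries without a prefix, 35 genes were higher and 0 lower in KO, and the share of all genes was not calculated there.

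Among KO cells, MK and NMK scores differed by -0.28 (SD 1.66), with 3 genes higher and 10 lower, against 34.2% and 3.84% of all genes. Without the 2 low NMK libraries, MK cells were lower by 1.02 (SD 0.57; means 4.99 and 6.01), and 3 of the 5 lay below every NMK cell. Then 2 genes were higher and 24 lower, where 26% of all genes were higher and 6.97% lower. The median of the 47 differences was -1.12 while that of all genes was 0.36. Without KO MK B1-4 and 2, whose megakaryocyte marker scores were low, 14 were lower (6.26%) with the low NMK libraries kept. With those left out as well, 29 were lower (9.5% of all genes), at a score difference of -1.20 (SD 0.59). Within the libraries whose titles start with B1, the difference was 1.13 with the 2 low libraries and -0.72 without them, and within those without a prefix it was -1.17. The housekeeping score was lower in the MK cells by 0.43 (SD 0.18), and its part was not tested.

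Between MK cells, KO was lower than WT by 0.62 (SD 0.55; means 4.99 and 5.61), and 3 of 5 KO cells lay below every WT cell. No gene was 1 or more higher, where 12.4% of all genes were, and 11 were lower, where 9.27% were. The lower count was 20 (9.58%) without KO MK B1-4 and 2 and 16 (13.4%) with the similar WT MK libraries averaged. Housekeeping scores differed by 0.01 (SD 0.19) here. The differences share their groups, since each group enters 2 comparisons.

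**Figure D4:**
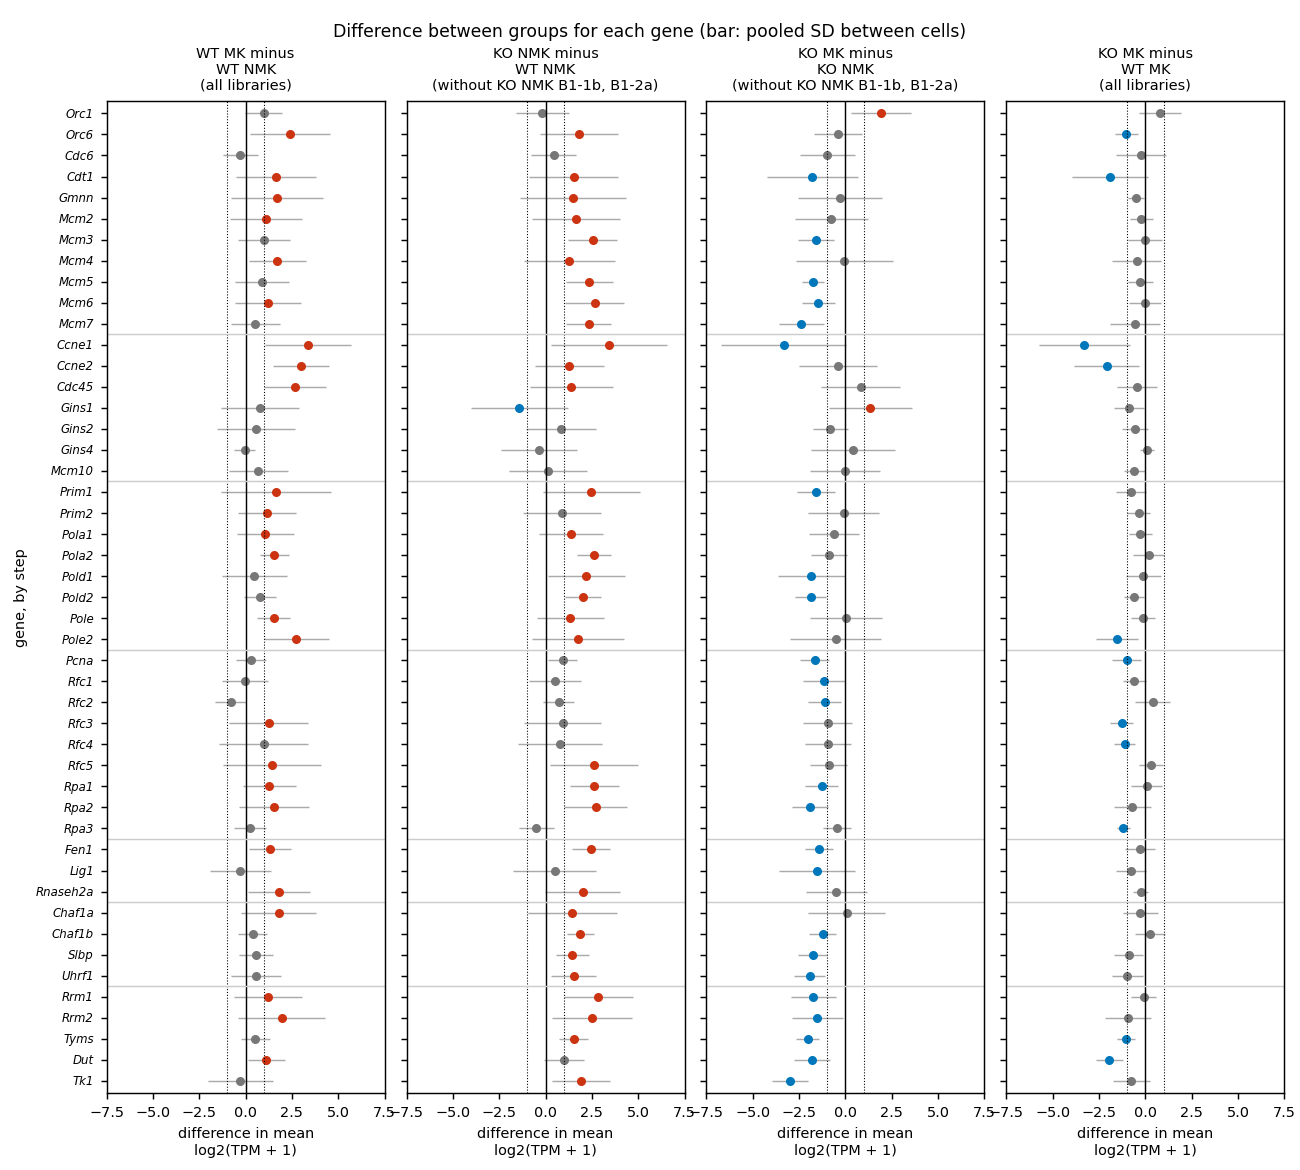
Difference in mean log2(TPM + 1) for each of the 47 genes in 4 comparisons (points: difference, red at 1 or more and blue at -1 or less; bars: pooled SD between cells). In KO NMK against WT NMK without the 2 low libraries, 32 points lie at 1 or more; in KO MK against KO NMK without them, 24 lie at -1 or less.

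Of the licensing genes, the helicase subunits Mcm3, Mcm5, Mcm6 and Mcm7 had the largest KO minus WT differences in NMK cells. Mcm3 had a lowest, median and highest TPM of 4.7, 69.6 and 171.9 in WT NMK, 60.8, 96.4 and 203.4 in WT MK and 68.2, 384.3 and 581.7 in the 11 KO NMK cells. The KO MK cells had 127.1, 75.7, 249.6, 117.0 and 28.2 TPM, in the order 1B, B1-3, B1-4, 2 and 1A, which is kept below. The median KO NMK cell lay above the highest WT NMK cell, yet the groups overlapped, and the difference was 2.55 (SD 1.32) without the 2 low libraries. In the same comparison Mcm5, Mcm6 and Mcm7, partners in the ring, were higher by 2.36 (SD 1.27), 2.65 (SD 1.6) and 2.33 (SD 1.22), whereas Mcm2 and Mcm4 were higher by 1.65 (SD 2.36) and 1.29 (SD 2.47), within their spread. With WT NMK 2 left out too, Mcm3, Mcm5, Mcm6 and Mcm7 were higher by 2.16, 1.88, 2.04 and 1.86. Mcm2 and Mcm4 were then higher by 1.03 and 0.70. Summed over Mcm2 to Mcm7, WT NMK cells ran from 4.7 to 601.5 TPM, WT MK cells from 206.1 to 655.3 and the 11 KO NMK cells from 330.9 to 1394. The KO MK sums were 496, 267.1, 819.5, 330.6 and 102.7 TPM, so B1-4, a cell with a low megakaryocyte marker score, was the highest of them.

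Mcm7 had the lowest KO MK minus KO NMK difference of the licensing genes. Its TPM was 26.5, 4.1, 48.5, 22.6 and 1.6 in KO MK cells, against 17.9, 78.7 and 132.2 (lowest, median, highest) in the 11 KO NMK cells. The difference was -2.38 (SD 1.22), with KO MK 1B, B1-4 and 2 inside the KO NMK range. Mcm5 was the only one of the 47 with all 5 KO MK cells (10.8 to 32.0 TPM) below all of these 11 KO NMK cells (40.4 to 132.6), at -1.76 (SD 0.60). How many of all genes separated these cells was not calculated.

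The loaders gave a mixed picture. Cdt1, which brings the helicase to the origin, stood at 58.4, 1.6, 89.6, 1.5 and 0 TPM in KO MK cells and at 14.7, 30.3 and 68.5 TPM in WT MK cells, a difference of -1.91 (SD 2.07) with 2 KO cells inside or above the WT range. Gmnn encodes geminin, the inhibitor of Cdt1, and was 291.2, 151.9, 215.9, 246.8 and 102.0 TPM in the KO MK cells against 212.5, 270.6 and 360.8 in WT MK cells. Its difference of -0.52 (SD 0.44) was under the limit. Across 31 cells the log2 levels of Cdt1 and Gmnn had r = 0.23 (rho 0.32).

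Cdc6, the other loading factor, had medians of 7.5 TPM in WT NMK, 5.0 in WT MK and 12.7 in the 11 KO NMK cells, and 12.1, 0.3, 21.0, 5.3 and 0.6 TPM in KO MK cells. No comparison with all libraries moved it by 1. Orc1 was at 7.4 TPM or less in 31 of the 33 libraries and at 35.5 in KO NMK B1-3b and 38.3 in KO MK B1-4. It was listed at 0 in 9 of 13 KO NMK cells and was 3.4, 3.4, 38.3, 2.9 and 1.9 TPM in KO MK cells, higher by 1.96 (SD 1.51) over all libraries and by 1.29 (SD 1.41) without B1-4 and 2. Orc6, a small subunit of the same complex, was lower in KO MK (142.4, 56.4, 37.9, 59.2 and 40.4 TPM) than in WT MK cells (77.7, 120.8 and 202.7), by 1.03 (SD 0.62), with only KO MK 1B inside the WT range. That difference fell under the limit with KO MK B1-4, KO MK 1A, WT MK B1-1 or WT MK 2 left out.

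Origin firing held the largest single differences. Ccne1, cyclin E1, was listed at 0 in 7 of 9 WT NMK cells and stood at 54.2 and 51.5 TPM in 2B and 4B. It was 2.9, 33.7 and 106.5 TPM (lowest, median, highest) in WT MK cells, so MK exceeded NMK by 3.37 (SD 2.30). In KO MK cells it was 107.4 TPM in 1B and listed at 0 in the other 4, which made it lower than in WT MK by 3.29 (SD 2.45). In KO NMK cells it was listed at 0 in 5 of 13 and ran from 2.9 to 367.3 TPM in the rest, 2.69 (SD 3.26) above WT NMK, or 3.41 (SD 3.12) without the 2 low libraries.

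Ccne2, cyclin E2, followed the same cell in KO MK. It was 102.3 TPM in 1B and 2.3, 0.5, 1.8 and 2.5 TPM in the others, against 7.6, 28.7 and 43.4 TPM in WT MK cells, a difference of -2.08 (SD 1.75). Thus 4 of 5 KO MK cells lay below every WT MK cell and 1 above every one. In WT cells Ccne2 was higher in MK by 2.97 (SD 1.51), as the NMK cells had a median of 0.9 and a highest value of 27.3 TPM. KO MK 1B also had the highest Slbp and Rrm2 levels of its group and the lowest mitosis score (3.05).

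The helicase activators behaved differently from each other. Cdc45, the helicase cofactor, was listed at 0 in 5 of 9 WT NMK cells and was 8.3, 13.0 and 46.7 TPM in WT MK cells, higher by 2.67 (SD 1.68). In KO MK cells it was 25.9, 12.9, 22.6, 10.7 and 1.6 TPM. Gins1 had the lowest KO minus WT difference of the 47 in NMK cells, with 0, 4.5 and 65.9 TPM over all 13 against 0, 68.1 and 148.6 in WT NMK, a difference of -1.95 (SD 2.68). The difference was -1.41 (SD 2.61) without the 2 low libraries, and 3 of the 11 remaining cells were at 0.2 or 0.3 TPM.

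Gins2 and Gins4, partners of Gins1 in the same complex, differed by -0.35 (SD 2.86) and -0.83 (SD 2.45) between KO and WT NMK cells with all libraries, and by 0.83 (SD 1.89) and -0.36 (SD 2.05) without the 2 low ones. With WT NMK 2 left out too, they differed by -0.02 (SD 0.84) and -0.41 (SD 2.11). Gins2 had medians of 155.1 TPM in WT NMK, 168.3 in WT MK and 197.8 in the 11 KO NMK cells and was 169.9, 72.0, 178.5, 209.0 and 42.1 TPM in KO MK cells. Gins4 had medians of 118.6, 137.6 and 257.9 TPM in the same groups and was 119.7, 163.7, 168.4, 216.8 and 103.6 TPM in KO MK cells. Neither passed a difference of 1 in any of the 4 comparisons with all libraries. Mcm10, which helps to start unwinding, was listed at 0 in 9 of 31 cells, had a highest value of 7.1 TPM in WT MK cells and passed the limit in no comparison with all libraries either. As a step, origin firing was lower in KO MK than in WT MK by 1.11 (SD 0.83), and 4 of 5 KO cells lay below all WT cells while 1B, at 5.68, lay inside the WT range (4.13 to 5.75). Without WT NMK 2, and with all KO NMK cells kept, the step differed between KO and WT NMK cells by -0.08 (SD 1.36), against 0.25 (SD 1.46) with it.

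The polymerases and primase separated the WT groups without overlap. The step score was 3.67 to 4.45 in the 6 WT MK cells and 0.68 to 3.57 in the 9 WT NMK cells, a difference of 1.36 (SD 0.74), or 1.27 within the libraries without a prefix. Of its 8 genes, 6 were 1 or more higher, where 37.4% of all genes were. Without WT NMK 2 the step difference was 1.12, and Prim1 (0.90), Prim2 (0.91) and Pola1 (0.75) fell under the limit. That left Pole2, Pola2 and Pole, a share close to the 37.4% of all genes. The step difference was 0.44 with a pseudocount of 10, 0.46 as a ratio of mean TPM and -0.04 in the full table. Pole2, the second subunit of polymerase epsilon, was at 12.7, 17.2 and 25.3 TPM in WT MK cells and was listed at 0 in 6 of 9 WT NMK cells (highest 22.8). It differed by 2.74 (SD 1.74) there and by -1.52 (SD 1.13) between KO MK (17.8, 7.7, 0, 4.0 and 12 TPM) and WT MK cells. The 0 and 4.0 TPM belong to KO MK B1-4 and 2, the cells with low megakaryocyte marker scores. Without B1-4 that difference was -0.85, under the limit. Without both cells the KO MK mean was 12.5 TPM, against 17.8 in WT MK cells.

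Prim1, which makes the RNA primer, varied widely among NMK cells. It ran from 0 through 137.2 to 997.0 TPM in WT NMK, from 76.1 through 322.0 to 865.0 in KO NMK and from 108.0 through 237.0 to 321.6 in WT MK cells. The KO MK cells had 175.9, 170.9, 176.6, 110.5 and 41.8 TPM. KO NMK cells exceeded WT NMK cells by 2.31 (SD 2.52), and KO MK differed from KO NMK cells by -1.43 (SD 1.06). Leaving out the 2 low libraries made these 2.46 (SD 2.62) and -1.58 (SD 1.04). Prim1 was also among the 4 genes at 1 TPM or more in the low library KO NMK B1-2a, at 322.0 TPM, beside Gins4 at 181.0, Dut at 53.4 and Pole at 34.6. Of the catalytic polymerase subunits, Pold1 was higher in KO than in WT NMK cells by 2.19 (SD 2.07), Pola1 by 1.39 (SD 1.72) and Pole by 1.34 (SD 1.81) without the 2 low libraries, each close to its spread, and Prim2, the large primase subunit, differed by 0.89 (SD 2.10).

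Pola2, the accessory subunit of polymerase alpha, was low everywhere but differed by more than its spread in NMK cells. It was 0, 0.3 and 4.8 TPM in WT NMK and 1.8, 10.4 and 24.5 TPM in the 11 KO NMK cells, higher by 2.62 (SD 0.92). Pold2, the partner of Pold1 in polymerase delta, was 6.5, 30.0 and 80.5 TPM in WT NMK and 31.9, 145.3 and 221.0 in those KO NMK cells, higher by 2.02 (SD 0.97). In KO MK cells Pold2 was 38.5, 41.2, 29.5, 11.9 and 43.0 TPM, lower than in the KO NMK cells by 1.88 (SD 0.83).

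Pcna was present in every library but KO NMK B1-2a. It ran from 224.4 through 884.3 to 2069 TPM in WT NMK, from 481.1 through 1150 to 1476 in WT MK and from 559.8 through 1760 to 2487 in the 11 KO NMK cells. KO MK cells had 1188, 307.2, 473.8, 818.8 and 223.9 TPM. KO MK was lower than WT MK by 1.01 (SD 0.79) and than these KO NMK cells by 1.65 (SD 0.78), and 3 of 5 KO MK cells were below every WT MK cell.

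Rpa3 separated the MK groups completely. All 5 KO MK cells (460.5, 394.4, 459.4, 680.7 and 684.8 TPM) lay below all 6 WT MK cells (804.4 to 1566 TPM), a difference of -1.19 (SD 0.36). With the similar WT MK libraries averaged, the difference was -0.97 (SD 0.39), under the limit, and the groups still did not overlap. In NMK cells it was lower in KO than in WT by 1.66 (SD 2.47) over all libraries and by 0.49 (SD 0.97) without the 2 low ones. Its partners had differences of the opposite sign without those libraries, Rpa1 higher by 2.64 (SD 1.32) and Rpa2 by 2.70 (SD 1.69).

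Within the clamp loader the subunits did not move by the same amount. Rfc2 was 166.5, 261.3 and 550.9 TPM in WT MK and 176.4, 449.2 and 1408 in WT NMK cells, a difference of -0.81 (SD 0.85), the lowest of the 47. In KO MK cells it was 200.8, 203.4, 1061, 842.6 and 174.9 TPM, and the 2 high cells are B1-4 and 2. Rfc5 was higher in KO NMK than in WT NMK cells by 2.63 (SD 2.38) without the 2 low libraries, whereas Rfc1, Rfc2, Rfc3 and Rfc4 differed by 0.51 to 0.92. With WT NMK 2 left out too, the difference was 1.89 (SD 1.93) for Rfc5 and 0.52 for Rfc2. It was then 0.04 for Rfc1, 0.06 for Rfc3 and -0.18 for Rfc4. Between KO and WT MK cells Rfc3 differed by -1.27 (SD 0.62) and Rfc4 by -1.12 (SD 0.58), whereas Rfc1 differed by -0.61 (SD 0.62), Rfc2 by 0.39 (SD 0.95) and Rfc5 by 0.29 (SD 0.64). Without KO MK B1-4 and 2 every subunit had a lower mean TPM in KO MK than in WT MK cells. For Rfc2 it was then 193.0 against 298.3 TPM and for Rfc5 144.4 against 163.8. With the similar WT MK libraries averaged, the difference of Rfc4 was -0.95, under the limit. For the whole clamp and RPA step the difference between KO and WT NMK cells was 0.15 (SD 2.40) with all libraries, 1.26 (SD 1.17) without the 2 low KO libraries and -0.39 (SD 2.23) without WT NMK 2 alone.

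Okazaki fragments are trimmed by Fen1, cleared of RNA by RNase H2 and sealed by Lig1. Fen1 was 0, 8.4 and 22.2 TPM in WT NMK and 21.2, 39.3 and 77.7 in the 11 KO NMK cells, higher by 2.46 (SD 1.02), and 2 of these KO cells lay inside the WT range. Lig1, DNA ligase I, was 0, 34.4 and 96.7 TPM in WT NMK and 0, 89.6 and 170.3 in KO NMK cells, which differed by 0.48 (SD 2.21). With WT NMK 2 left out too, Lig1 differed by -0.15 (SD 1.88). KO MK cells had 26.9, 7.2, 10.6, 36.5 and 8.7 TPM of Lig1, and WT MK cells 12.7, 23.8 and 53.1. Rnaseh2a, the catalytic subunit of RNase H2, was nearly constant in WT MK cells, at 25.2, 26.4 and 28.8 TPM, and listed at 0 in 2 of 9 WT NMK cells. It differed between the WT groups by 1.78 (SD 1.67).

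Chromatin is rebuilt behind the fork by the histone chaperone CAF-1. Its subunit Chaf1b was the only one of the 47 in which all 11 KO NMK cells (54.3, 99.7 and 214.3 TPM) lay above all 9 WT NMK cells (9.1, 30.4 and 52.7 TPM), at 1.88 (SD 0.72). The share of all genes that separated these cells was not calculated. KO MK cells had 85.9, 54.1, 58.8, 40.7 and 19.1 TPM of it, lower by 1.23 (SD 0.73). Slbp, which binds and stabilises histone mRNA in S phase, was 280.2, 61.0, 104.1, 119.2 and 36.4 TPM in KO MK cells and 189.2, 316.5 and 672.7 TPM in those KO NMK cells, a difference of -1.78 (SD 0.80), with KO MK 1B alone inside the KO NMK range. Uhrf1, which helps to copy DNA methylation, was 17.0, 2.2, 7.9, 5.0 and 2.9 TPM in KO MK cells and 14.7, 19.3 and 93.4 in these KO NMK cells, a difference of -1.94 (SD 0.86). Chaf1a, the large CAF-1 subunit, was listed at 0 in 3 of 9 WT NMK and 2 of 11 KO NMK cells and differed between MK groups by -0.27 (SD 0.95).

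Without the 2 low libraries, nucleotide supply had the largest score difference of the steps between KO NMK and WT NMK and between KO NMK and KO MK cells. Polymerases and primase came next against WT NMK, with means of 4.46 and 2.63. With all libraries their means (4.05 and 2.63) lay further apart than those of nucleotide supply (6.78 and 5.69). The nucleotide supply score was 7.65 in the 11 KO NMK cells against 5.69 in WT NMK cells, a difference of 1.97 (SD 0.97), and 10 of the 11 lay above every WT NMK cell. It was 1.61 (SD 0.68) with WT NMK 2 left out too, and 1.09 (SD 1.91) with all libraries. KO MK cells scored 6.44, 5.37, 5.86, 5.86 and 4.62, lower than those KO NMK cells by 2.03 (SD 0.62), and 4 of 5 lay below every one of them. All 5 genes were lower by 1 or more in that comparison. Within the libraries with the prefix B1 the difference was -1.61 without the 2 low libraries and 0.50 with them, and without a prefix it was -2.18.

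Of these 5 genes Tk1, thymidine kinase of the salvage route, differed most between the KO groups. It was 17.2, 10.3, 28.3, 20.4 and 5.2 TPM in KO MK cells and 27.4, 140.3 and 262.1 in the 11 KO NMK cells, a difference of -3.00 (SD 0.96), with only B1-4 above the lowest KO NMK cell. In WT cells it was 9.1, 27.8 and 59.3 TPM in MK and 0, 55.4 and 148.6 in NMK cells, which differed by -0.29 (SD 1.75), and by -0.92 (SD 1) without WT NMK 2.

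The 2 subunits of ribonucleotide reductase, the enzyme that makes deoxyribonucleotides, had different patterns. Rrm1, the large subunit, was 0, 92.0 and 147.8 TPM in WT NMK and 50, 523.8 and 740.6 in the 11 KO NMK cells, higher by 2.86 (SD 1.84), and 96.3, 177.3, 196.6, 69.1 and 70.9 TPM in KO MK cells. Rrm2, the small subunit made in S phase, was 0, 149.0 and 601.1 TPM in WT NMK, 219.2, 523.4 and 733.1 in WT MK and 107.8, 998.4 and 1804 in those KO NMK cells. It was 1029, 84.6, 439.2, 305.5 and 60.2 TPM in KO MK cells, so 1B was above and 2 cells were below the whole WT MK range. Rrm2 exceeded Rrm1 in 22 of 31 cells.

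Dut, which removes dUTP so that uracil is not built into DNA, separated the MK groups. The KO MK cells (114.0, 45.9, 27.5, 132.4 and 36.8 TPM) all lay below the WT MK cells (147.5 to 333.9), a difference of -1.95 (SD 0.73). This was -1.97 (SD 0.58) without KO MK B1-4 and 2. Tyms, thymidylate synthase, was lower there by 1.06 (SD 0.50) and in KO MK against the 11 KO NMK cells by 2.05 (SD 0.61). In NMK cells Tyms was higher in KO by 1.52 (SD 0.77).

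With KO NMK B1-1b and B1-2a kept, most of the differences named for KO NMK cells were smaller and lay within the spread. KO minus WT in NMK cells was then 1.76 for Mcm3, 1.53 for Mcm5, 1.49 for both Mcm6 and Mcm7, 0.63 for Mcm2 and 0.37 for Mcm4. Among the polymerases and primase it was 2.13 (SD 1.28) for Pola2, which stayed above its spread, 1.73 for Pole, 1.43 for Pold1, 0.97 for Pold2, 0.81 for Pola1 and 0.45 for Prim2. In the clamp and RPA step it was 1.71 for Rpa1, 1.33 for Rpa2 and 1.32 for Rfc5, and it turned negative for Rfc2 (-0.50), Rfc3 (-0.28), Rfc4 (-0.25) and Pcna (-0.37), with Rfc1 at 0.01. Fen1, at 1.88 (SD 1.55), also stayed above its spread, and Lig1 was at 0.07. Behind the fork it was 1.35 for Chaf1b, 1.02 for Uhrf1 and 0.75 for Chaf1a, and in nucleotide supply 1.95 for Rrm1 and 0.86 for Tyms.

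KO MK minus KO NMK with these 2 libraries kept was -1.53 for Mcm7, -0.92 for Mcm5, -0.83 for Pold2, -0.36 for Pcna, -0.70 for Chaf1b and -0.49 for Slbp, each within its spread. It was -1.93 (SD 2.42) for Tk1 and -1.39 (SD 1.58) for Tyms. Of these differences with the libraries kept, that of Uhrf1 was past its spread, at -1.45 (SD 1.40). The nucleotide supply score differed by -1.15 (SD 1.96).

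Many replication genes are known targets of E2F factors, and E2F-like sequences are present in the promoters of several members. RefSeq promoter windows of GRCm38.p6 (300 bases, from 250 before to 50 after a start) were found for 38 of the 47 genes. The E2F-like words TTTGGCGC, TTTCGCGC, TTTCCCGC and GGCGGGAA, were searched on both strands, and matches may overlap. At least 1 of them was present in 17 of 38 members (44.7%) and in 1081 of 27025 genes with windows of this length (4%). By step, 7 of 9 matched licensing genes held a word, 4 of 6 polymerase and primase genes, 2 of 8 clamp and RPA genes, 1 of 3 Okazaki genes, 2 of 4 chromatin genes, 1 of 5 nucleotide genes and 0 of 3 origin firing genes. The word CCAAT was present in 24 members (63.2%) and 41.1% of genes, and TTTGAA in 4 members (10.5%) and 20.2% of genes. A match is a description of these letters and not a bound site. The stretches of 100 bases printed here, 5′ to 3′ on the strand of the gene, are shown because they hold the matched words (in capitals) and lie before both the RefSeq and the GENCODE start. They belong to 2 helicase subunits, the catalytic subunit of polymerase alpha, the large subunit of CAF-1, Uhrf1 and the large subunit of ribonucleotide reductase.
Mcm6 (chr1:128359730-128359829, minus strand, 124 to 25 bases before the start): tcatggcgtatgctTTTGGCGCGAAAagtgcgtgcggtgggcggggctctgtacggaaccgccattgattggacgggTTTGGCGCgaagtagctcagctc
Mcm5 (chr8:75109312-75109411, plus strand, 197 to 98 bases before the start): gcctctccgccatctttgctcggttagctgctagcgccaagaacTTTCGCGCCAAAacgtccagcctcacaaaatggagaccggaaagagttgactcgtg
Pola1 (chrX:93632240-93632339, minus strand, 184 to 85 bases before the start): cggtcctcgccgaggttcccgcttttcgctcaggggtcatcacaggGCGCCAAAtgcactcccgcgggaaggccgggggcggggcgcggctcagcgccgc
Chaf1a (chr17:56040297-56040396, plus strand, 119 to 20 bases before the start): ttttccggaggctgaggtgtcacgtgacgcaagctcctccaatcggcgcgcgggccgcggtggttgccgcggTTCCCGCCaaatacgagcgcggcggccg
Uhrf1 (chr17:56303217-56303316, plus strand, 120 to 21 bases before the start): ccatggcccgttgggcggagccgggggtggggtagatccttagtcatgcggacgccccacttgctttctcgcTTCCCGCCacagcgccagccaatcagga
Rrm1 (chr7:102441566-102441665, plus strand, 129 to 30 bases before the start): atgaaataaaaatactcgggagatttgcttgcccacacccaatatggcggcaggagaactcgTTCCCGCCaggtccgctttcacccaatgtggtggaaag
In Mcm6 the first 2 matched words overlap, and so do those in Mcm5. Without the 2 low libraries these 6 genes were higher in KO NMK than in WT NMK cells by 2.65 (Mcm6), 2.36 (Mcm5), 1.39 (Pola1), 1.45 (Chaf1a), 1.51 (Uhrf1) and 2.86 (Rrm1). In that setting 32 of the 47 genes were 1 or more higher. With all libraries Pola1 (0.81, SD 1.97) and Chaf1a (0.75, SD 2.65) were under the limit and within their spread. A link between the words and the levels was not tested.

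Other genes of the same pathways were described from fixed lists, some of whose values were known when they were drawn up. Of 31 other replisome genes, 20 were higher and 0 lower in MK than in NMK cells of WT mice, where 37.4% and 5.22% of all genes were. Between KO and WT NMK cells 11 were higher and 4 lower with all libraries (12.8% and 13.3% of all genes), the lower count being near that background. Without the 2 low libraries 17 were higher and 1 lower (24.1% and 7.62%). Between KO and WT MK cells 1 was higher and 7 lower (12.4% and 9.27%). Wdhd1, which links the helicase to polymerase alpha, was higher in KO than in WT NMK cells by 2.46 (SD 1.55), or 2.96 (SD 1.29) without the 2 low libraries. Of 22 other nucleotide enzymes, 7 were lower and 2 higher in KO MK than in WT MK cells, where 9.27% and 12.4% of all genes were, and all 5 KO cells had a lower list score than any WT MK cell (3.96 against 4.67, SD 0.23). Shmt1, a folate enzyme that feeds thymidylate synthesis, was 0, 2.0, 0, 7.7 and 4.3 TPM in KO MK cells and 6.3, 14.6 and 20.3 in WT MK cells, a difference of -2.36 (SD 1.06).

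Of 17 E2F and RB regulators, 12 were higher and 0 lower in KO than in WT NMK cells, both with all libraries (12.8% and 13.3% of all genes) and without the 2 low ones (24.1% and 7.62%). E2f1, an activating E2F, was 27.6, 4.4, 27.2, 13.4 and 3.8 TPM in KO MK cells and 5.9, 9.5 and 25 in WT MK cells, which differed by 0.07 (SD 0.97). KO minus WT in NMK cells was 1.02 (SD 2.19), or 1.58 (SD 2.02) without the 2 low libraries. Fbxo5, an E2F target that restrains the anaphase-promoting complex, was higher in KO than in WT NMK cells by 4.45 (SD 3.44), or 5.71 (SD 2.62) without those libraries, and within WT in MK by 4.30 (SD 3.05). Rb1, the retinoblastoma protein that holds E2F factors back, was higher in KO MK than in WT MK cells by 1.44 (SD 0.78) and, within WT, in MK than in NMK cells by 2.85 (SD 1.09). Of 10 other chromatin assembly genes, 4 were lower and 0 higher in KO MK than in WT MK cells (9.27% and 12.4% of all genes), among them the helicase Hells at -1.87 (SD 1.45). Of 14 replication stress and checkpoint genes, 4 were higher in MK than in NMK cells within WT, a smaller share than the 37.4% of all genes, and 2 in KO than in WT NMK cells, near the 12.8% of all genes.

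Replication and mitosis genes moved only partly together across cells. Over the 31 libraries the replication score and the score of 25 mitosis genes had r = 0.48 (rho 0.28), and r = 0.28 (rho 0.21) without WT NMK 2. The values share library and total. WT NMK 1B, 2B, 4A and 4B combined replication scores of 4.58 to 5.61 with mitosis scores of 0.83, 2.09, 0.39 and 1.87, whereas WT NMK 1, 3, 1A and 3A had mitosis scores of 5.08 to 6.06 at replication scores of 4.48 to 5.16. In WT cells 20 of the 25 mitosis genes were higher in MK and 0 lower (37.4% and 5.22% of all genes), led by Ccnb2 (4.39), cyclin B2, and Birc5 (4.17), survivin. The 11 KO NMK cells had mitosis scores of 2.82 to 7.30, higher than WT NMK by 2.76 (SD 1.91), or by 1.96 (SD 2.35) with all 13. Between KO and WT MK cells the mitosis score differed by 0.11 (SD 1.16), while the replication score differed by -0.62.

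**Figure D5:**
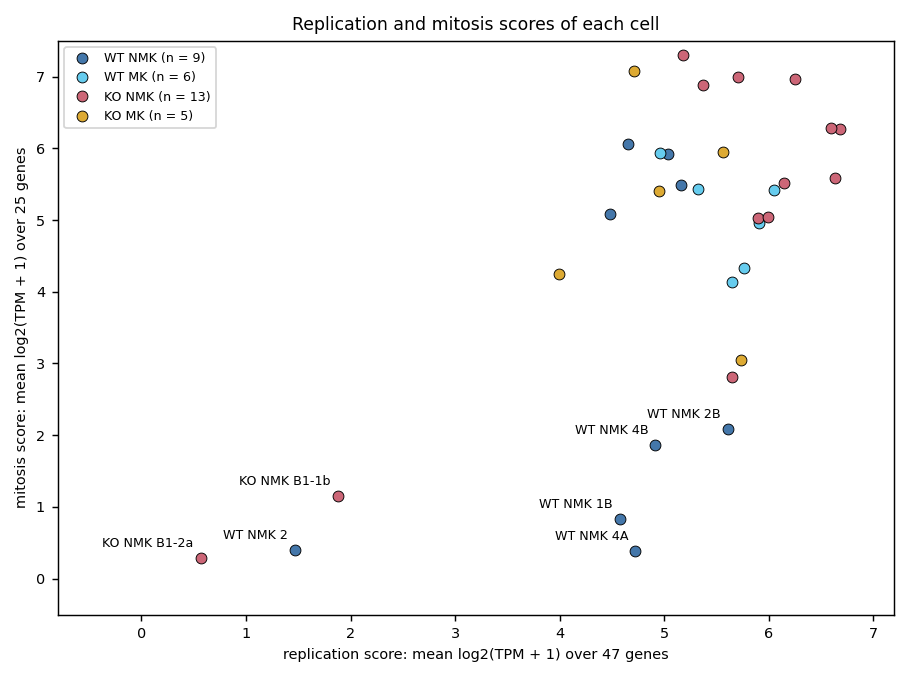
Mitosis score against replication score for each of 33 cells, coloured by group. WT NMK 1B, 2B, 4A and 4B lie at replication scores of 4.58 to 5.61 with mitosis scores of 2.09 or less, apart from the other cells of similar replication score.

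Ccna2, cyclin A2 of S and G2 phase, was 0, 27.9 and 44.6 TPM in WT NMK and 77.3, 119.3 and 128.6 in WT MK cells, which did not overlap, and 23.6, 267.1, 69.4, 32.5 and 120.8 TPM in KO MK cells. Mki67, the proliferation marker Ki-67, was 2.4, 13.3, 2.3, 1.5 and 5.5 TPM in KO MK and 5.6, 10.9 and 29.4 in WT MK cells, a difference of -1.44 (SD 0.86). The lowest values, 2.3 and 1.5 TPM, belong to KO MK B1-4 and 2. Stem cell markers were higher in all 5 KO MK than in all WT MK cells (mean score 3.06 against 1.74, SD 0.85), with 7 of 12 genes higher and 1 lower (12.4% and 9.27% of all genes). KO MK B1-4 stood at 4.78 and 2 at 3.99, and without them the difference was 0.44 (SD 0.21). Their part in the lower replication score was not tested. Erythroid scores had means of 0.52 to 1.40 over the 4 groups, granulocyte-monocyte scores 1.55 to 1.74, and the means of lymphoid, mast cell and stromal marker scores were 0.74 or less.

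With each library left out in turn, 12 of the 25 genes counted as higher in WT MK kept that count every time, 13 of 20 in KO NMK against WT NMK, 6 of 10 lower in KO MK against KO NMK and 6 of 11 lower in KO MK against WT MK. Rescaling by median ratios moved the median of all genes from 0.20 to -0.02 in KO NMK against WT NMK, where 15 of the 47 then counted as higher and 3 as lower (8.62% and 17.2% of all genes), and from 0.09 to -0.06 in KO MK against WT MK, with 15 lower (11.7% of all genes).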

How the data were processed

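RNA-seq libraries of single picked cells were analysed from the authors' deposited table of TPM values for 33 libraries, printed to 1 decimal, and from a second deposited TPM table of 46 libraries that holds 13 more which the authors left out of the first. A further 44 of the 90 samples with labels were not analysed here. The full table has 1 column that matched no sample, which was left unused. Per the submitters' processing notes the build was mouse mm10 and the tools were STAR 2.6.1e, featureCounts 1.6.2, FastQC 0.11.7 and cutadapt 1.9.1. How TPM was calculated, and whether strand was used, is not given in the sources used here. Since depth cannot be read from TPM, no counting error could be given, and antisense or overlapping genes could not be told apart.

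Groups came from the sample labels. Levels were compared as the difference of group means of log2(TPM + 1), over genes that averaged at least 1 TPM in either group, beside the pooled SD between cells. A difference of 1 or more was counted. The calculation of differences was checked on simulated, normally distributed log2 values with known shifts in genes of higher level. This check does not cover genes that are often listed at 0. Alternatives were the full table, pseudocounts of 0.1 and 10, medians over cells, the ratio of mean TPM, rescaling by median ratios, removal of mitochondrial and ribosomal protein genes, minimum levels, title prefixes, and each library left out in turn. Leaving out pairs of doubtful libraries was partly chosen after the data were seen.

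Values by cell were printed for the 2 genes of each step with the highest mean TPM and for the 3 genes with the highest and the 3 with the lowest difference in each comparison (averaging at least 5 TPM in a group). Other genes of the 47 were described where their groups did not overlap or to complete a step, chosen after their values were seen. The 47 genes and all lists were chosen with earlier results of these data known. Promoters came from RefSeq (GRCm38.p6) and transcript lengths from GENCODE. Calculations used pandas 2.3.3, numpy 2.4.6 and scipy 1.17.1 under Python 3.11.15, and plots matplotlib 3.10.9.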

Additional observations from a re-analysis of the deposited data

Results flagged for a closer look

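Within groups of 4 to 10 cells, 105 combinations of group and measure (35 measures) were examined for a single cell whose gap to its nearest neighbour took up most of the range of its group. Such a cell was found in 14 of them, mostly the same cell, WT NMK 2. The measures overlap, since scores hold genes that were also examined alone, so the count cannot be set against a rate expected by chance. In WT NMK 2 the replication score was 1.47, with the next cell at 4.48, the licensing score was 0.74 (next 3.80), the clamp and RPA score 2.67 (next 7.18) and the Okazaki maturation score 0.79 (next 2.91). In the same cell Gins2, Lig1, Rrm1, Tk1 and Mcm7 were listed at 0, where the next cells had 110.4, 21.9, 22.0, 20.9 and 7.3 TPM, and Slbp was 19.3 TPM (next 79.9). Rrm2 was listed at 0 in WT NMK 1B, with the next cell at 36.9 TPM. In KO MK 1B, Ccne1 stood at 107.4 TPM while the other 4 cells were listed at 0, and Ccne2 at 102.3 TPM (next 2.5). Orc1 was 38.3 TPM in KO MK B1-4, a cell with a low megakaryocyte marker score, and 3.4 TPM in the next. No cause was tested.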

How the results depend on the processing

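No paired analysis was possible because no result came from a test and the shared numbers in the titles do not name a mouse or culture. Depth is unknown in TPM. In the full table of 46 libraries, MK minus NMK in WT turned from 1.09 to -0.53, with 3 genes higher and 14 lower; by step it was -0.42 (licensing), 0.17 (origin firing), -0.037 (polymerases), -1.50 (clamp and RPA), -0.31 (Okazaki), -0.58 (chromatin) and -0.85 (nucleotides), and the list medians were 0.14 (other replisome), -0.18 (nucleotide enzymes), -0.30 (chromatin assembly), 0.26 (E2F and RB), 0.10 (checkpoint) and -1.79 (housekeeping). There 15 genes turned: Cdt1 (-0.041), Gmnn (-0.86), Mcm2 (-0.20), Mcm4 (-0.50), Mcm6 (-0.86), Prim1 (-1.20), Pola1 (-0.12), Rfc3 (-1.51), Rfc5 (-1.23), Rpa1 (-0.59), Rpa2 (-0.0879), Rnaseh2a (-0.33), Rrm1 (-0.56), Rrm2 (-0.46) and Dut (-1.40). Among KO cells it gave 1 higher and 33 lower, with Cdc45 at -0.23 and Gins1 at -0.18, and between MK groups 1 higher and 3 lower, Rfc3 at 0.19, origin firing -0.16, nucleotide enzymes -0.35 and housekeeping 1.02.

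Without KO NMK B1-1b and B1-2a, 24 were lower in KO MK than in KO NMK, and 32 higher and 1 lower in KO than in WT NMK, with 1 lower when WT NMK 2 was left out too. A pseudocount of 0.1 gave, for WT MK minus NMK, origin firing 2.73, polymerases 2.45, replisome 2.32, nucleotide enzymes 1.63, E2F 2.65 and checkpoint 2.28, 10 higher in MK than in NMK among KO cells, and checkpoint -0.95 between MK groups. A pseudocount of 10 gave 8 higher in WT MK, polymerases 0.44, replisome 0.30, E2F 0.24 and checkpoint 0.10, 0 higher in MK than in NMK among KO cells, and 5 lower and nucleotide enzymes -0.53 between MK groups. Medians over cells gave 16 higher and 1 lower in WT MK, Rfc5 at -0.28, and 29 lower in KO MK than in KO NMK. The ratio of mean TPM gave 8 higher in WT MK, polymerases 0.46, replisome 0.36 and Prim1 -0.29, 1 higher and 26 lower in KO MK than in KO NMK, 1 lower in KO NMK than in WT NMK, and 1 higher, 6 lower and housekeeping 0.069 between MK groups. Median-ratio rescaling gave 5 higher in MK than in NMK among KO cells, where 39.3% of all genes were.

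Without a title prefix, 1 was lower in WT MK, 1 higher and 28 lower in KO MK than in KO NMK, and 35 higher and 0 lower in KO than in WT NMK. With the prefix B1, 26 were higher and 2 lower in KO MK than in KO NMK, where Cdt1 (1.81), Mcm7 (0.32), Pold1 (0.70) and Tk1 (0.36) turned; without the 2 low libraries 22 were lower and Cdt1 was 0.38. Between MK groups with that prefix (1 WT library), 1 was higher and 19 lower, with Okazaki -1.10, nucleotide enzymes -0.31 and E2F -0.77. Without KO MK B1-4 and 2, 20 were lower between MK groups, and without both pairs 1 was higher and 29 lower in KO MK than in KO NMK. With each library left out in turn, the counts ran from 14 (WT NMK 2) to 29 higher and 0 to 1 lower in WT MK, from 2 to 6 (KO MK 1A) higher and 6 (KO MK 1A) to 19 (KO NMK B1-2a) lower in KO MK against KO NMK, from 14 to 30 higher and 1 (KO NMK B1-2a) to 5 (WT NMK 2) lower in KO against WT NMK, and from 0 to 1 (KO MK 1A) higher and 7 (WT MK 2) to 16 (WT MK 1A) lower between MK groups. The cause of these changes was not tested.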

Other observations

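The 13 libraries that the authors left out of the main table belong to the labelled groups and enter only the comparisons of the full table. In 11 of them the housekeeping score was between 1.24 and 7.30 and the replication score between 0.40 and 3.07. The exceptions were KO NMK B1-1a and KO MK 1. KO NMK B1-1a had a housekeeping score of 10.5, a replication score of 6.51, a mitosis score of 6.06 and 45 of the 47 genes at 1 TPM or more, values like those of the KO NMK cells that were kept. KO MK 1 had a housekeeping score of 9.69, a megakaryocyte score of 8.30, a replication score of 1.24, a mitosis score of 0.62 and 12 of the 47 genes at 1 TPM or more. KO MK B1-1 had 27999 genes above 0, with a replication score of 3.07.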
